A study of Mus musculus with 8 samples.

Results

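Arc and Npas4 are early genes that neurons switch on within minutes of strong synaptic activity, and the chromatin of their 2 loci is described here in mouse hippocampus after contextual fear conditioning. Arc encodes a synaptic protein that promotes removal of AMPA receptors from the membrane and is widely used to mark neurons recruited by learning. Npas4 encodes a transcription factor that is induced by calcium entry and controls, among other targets, genes for inhibitory synapses. Arc has a known activity-response element upstream of its promoter, and both genes serve as markers of recent neuronal activity. The loci were taken as 2 fixed windows of the mm9 mouse genome, with limits set by position and not by measured values. The 2 genes were chosen with earlier results of these data known. The Arc window ran over 40 kb on chromosome 15 (74.48 to 74.52 Mb) and the Npas4 window over 35 kb on chromosome 19 (4.97 to 5.005 Mb). Of 11304 regions in the deposited count table, 1 overlapped the Arc window and 0 overlapped the Npas4 window. The 8 peak lists held 128 peaks in the Arc window and 152 in the Npas4 window, of 5729248 in all.

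The assay was Sono-seq, in which fixed chromatin is sheared and sequenced with no immunoprecipitation step, and open chromatin gives more reads because it shears more easily. All animals were male C57BL/6J mice aged 2 months, housed singly and handled on each of 3 days. The 4 mice of the conditioned group received a single foot shock (2 s, 1.5 mA) in a new chamber and were dissected 30 min later, while the 4 mice of the control group were handled only. The hippocampus was used whole, so fewer cells with open chromatin at a locus and less opening per cell cannot be told apart.

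Depth and the number of strong peaks differed within the groups and between them, which touches every value here. Total counts over the regions ran from 36786183 to 83233550 per library, and the regions outside the 50 highest held between 3.35% and 17.6% of them. Strong peaks (z score 30 or more, the level that the deposited region list uses) were found in 24.3% and 25.5% of all regions in control replicates 1 and 3, against 58.6% to 97.7% in the other 6 libraries. The median z of all regions was 20.9, 52.8, 20.1 and 43.5 in control replicates 1 to 4. In conditioned replicates 1 to 4 it was 51.2, 33.9, 64.1 and 84.9. A part of library level in group differences of z was not tested. The z score is the authors' own measure of peak height and its scaling is not stated. Levels of the Arc region and of the windows are therefore also given as a percentile within the same library. The z of single sites is given without one.

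For Npas4, the promoter sequence is shown because many activity-induced genes are controlled through cAMP-response elements (CRE), the sites that CREB binds. The 250 bases before the annotated start are printed 5′ to 3′ from the RefSeq table (GRCm38.p6, chr19:4989972-4990221, minus strand). That is another build than mm9, and no position was converted between them. Capitals mark the CRE core TGACGT, read on both strands, and the TATA core TATATAA.
Npas4: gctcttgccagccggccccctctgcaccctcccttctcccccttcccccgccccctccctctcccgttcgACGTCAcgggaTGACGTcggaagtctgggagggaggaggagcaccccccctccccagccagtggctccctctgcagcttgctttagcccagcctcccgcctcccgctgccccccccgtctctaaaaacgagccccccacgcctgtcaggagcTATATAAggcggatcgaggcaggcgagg
The CRE core occurred at 2 places, starting 180 bases before the gene start on the minus strand of the sequence shown and 169 bases before it on the plus strand. Of 32851 promoters in the table, 6.47% held this core at least once and 1.8% (592) at 2 places or more, overlapping places included. A full palindrome TGACGTCA counts as 2 overlapping places, and 508 promoters held one. Most of the 1.8% therefore held a palindrome, and the share with 2 separate cores, as at Npas4, was not counted. The full palindrome TGACGTCA, found in 1.55% of promoters, is not in these letters, and neither is the E-box CANNTG, found in 66.2%. TATATAA, found in 3.04% of promoters, began 28 bases before the start. The sequence had a GC content of 68.8%, against a median of 52.4% over all promoters in the table. Arc was not matched in that table. In the same annotation Arc (gene ID 11838) lies between the protein-coding genes Mroh4 and Jrk, and Npas4 (gene ID 225872) between Mrpl11 and Slc29a2.

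The Arc locus held 1 listed region of open chromatin, with a peak in all 8 libraries, and its reads did not differ between conditioned and control mice beyond the spread between libraries. The region spans 74502546 to 74503696 on chromosome 15 (mm9), and its place relative to the exons of Arc was not analysed here, since no mm9 annotation was used. It held 113, 966, 219 and 255 reads in control replicates 1 to 4. Conditioned replicates 1 to 4 held 280, 457, 725 and 1234 reads. The highest count thus came from a conditioned library, but control replicate 2 exceeded the other 3 conditioned libraries, and the groups overlapped.

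Scaled for composition (CPM, reads per 1e6 counts, with TMM factors), the control libraries had 5.15, 10.5, 11.7 and 4.29 CPM and the conditioned libraries 3.46, 10.4, 6.27 and 7.37 CPM. The order of the libraries changed with the scaling. Control replicate 3, with 219 reads, became the highest of the 8, and conditioned replicate 1 the lowest. The means were 6.87 ± 2.86 CPM in conditioned and 7.90 ± 3.72 CPM in control mice (SD, n = 4 each). The log2 fold change was -0.20 (SE 0.48; 95% interval -1.23 to 0.83), with an adjusted p of 0.959 (edgeR, quasi-likelihood; Benjamini-Hochberg over all regions). In edgeR's test 0 of 11304 regions (0.0%) passed at adjusted p below 0.05, and 881 (7.79%) had an unadjusted p below 0.05; the Arc region, at an unadjusted p of 0.683, was in neither set. Groups that did not overlap in CPM were found in 271 regions (2.4%), and the Arc region was not among them.
Changes within that interval are not excluded by these libraries. The sign rested on single libraries and on scaling. The log2 fold change was 0.02 without control replicate 3, 0.02 without conditioned replicate 1, and 0.57 when libraries were scaled by region totals alone, with no adjusted p below 0.05 in any of these.

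**Figure D1:**
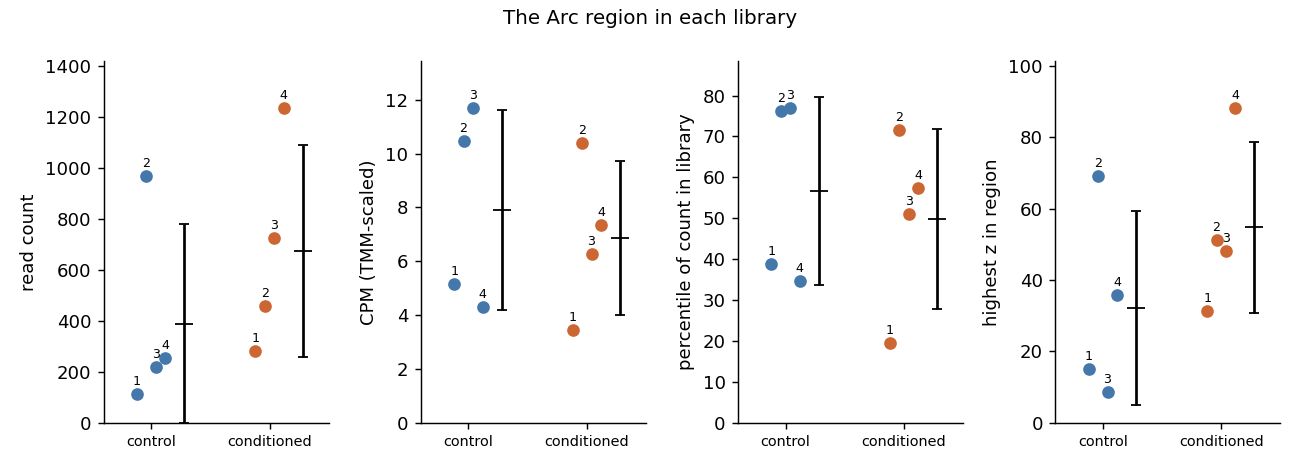
The Arc region in each library: read count, CPM, percentile of its count among all regions of the library, and highest z score. Points are libraries numbered by replicate, and bars give the mean and SD of 4. The groups overlap in every panel, with counts from 113 to 1234 and CPM from 3.46 to 11.7.

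Within its own library the Arc region was of middling size. By count it lay at percentiles 38.9, 76.1, 76.9 and 34.7 of all regions in controls 1 to 4 and at 19.5, 71.5, 51.2 and 57.4 in conditioned mice 1 to 4. The means were 49.9 ± 22.0 in conditioned and 56.7 ± 23.0 in control mice (SD, n = 4 each; exact permutation p = 0.629, two-sided). Over all libraries together it ranked at percentile 54.9 by total count, at 67.7 by length and at 32.8 by reads per length. The Arc region was therefore longer than most and less dense than most regions in the table. Its log2 fold change lay at percentile 39.5 of all regions, whose median was -0.05.

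The highest z score inside the region was 15.1, 69.1, 8.68 and 35.7 in control replicates 1 to 4. In conditioned replicates 1 to 4 it was 31.4, 51.3, 48.0 and 88.1. All 4 conditioned libraries and 2 of 4 control libraries thus reached z of 30, which are the 6 carriers given in the deposited region list. Its deposited mean z of 53.9 equals the mean over those 6 libraries, and it was at percentile 36.9 of the listed regions. The controls that fell short were replicates 1 and 3, the libraries with the fewest regions at that level.
The mean z was 54.7 ± 23.9 in conditioned and 32.1 ± 27.2 in control mice (SD, n = 4 each), and the gap was 22.6 (SE 18.1; two-sided exact permutation p = 0.286). Set against the z of all regions in the same library, the Arc region stood at percentiles 28.6, 71.2, 7.94 and 36.3 in controls and at 10.2, 77.6, 28.7 and 53.3 in conditioned libraries. These ranks averaged 42.5 ± 29.3 in conditioned and 36.0 ± 26.3 in control mice (SD, n = 4 each; exact permutation p = 0.714). Conditioned replicate 1 had the third lowest z of the 8 and the second lowest rank. In 7 of the 8 libraries the peak was listed as a single position with equal start and end, and those of the 4 libraries where it was the highest in the window lay between 74502969 and 74503051.

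Peak coverage on the 2 sides of the Arc region was unequal. The 22.5 kb at lower coordinates held 85 peaks over the 8 libraries, against 31 peaks in the 16.3 kb at higher coordinates. On the lower side 14.3% ± 2.56 of the sequence was covered by peaks (SD, n = 8; 10.4% to 18.0%), and on the higher side 1.19% ± 0.603 (0.615% to 2.15%). The lower side was more covered in 8 of 8 libraries, by 13.1 percentage points on average (SE 0.897), and by 7.61 points when only peaks of z at least 10 were kept. All 31 peaks on the higher side were single positions. This split was made after the values were seen, so the difference is a description with no test. The sides differ in sequence as well, and a part of sequence content or mapping in it was not tested.

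**Figure D2:**
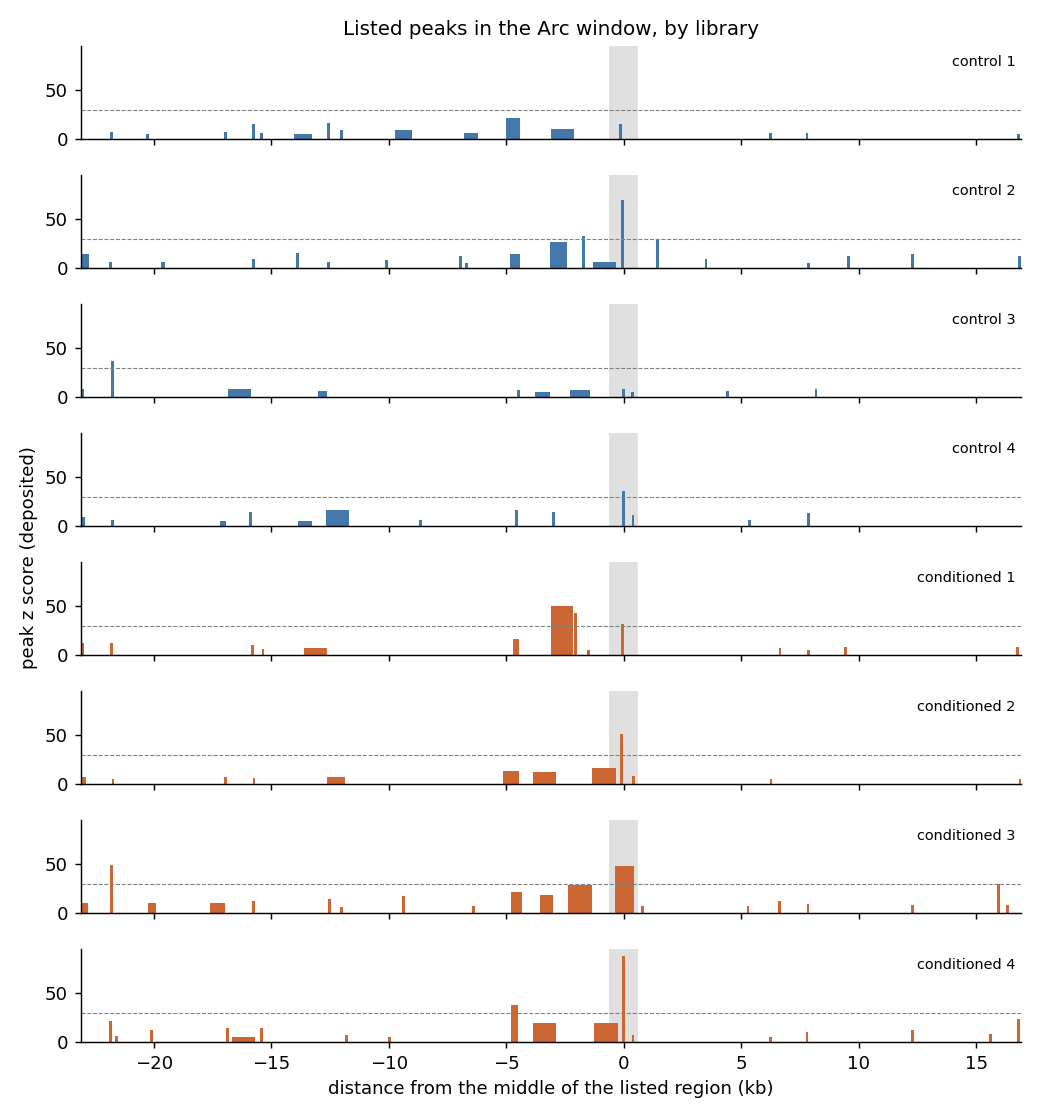
Listed peaks of each library across the Arc window, as z score against distance from the middle of the Arc region (grey band); a bar spans the peak (at least 0.12 kb wide as drawn), the dashed line is z of 30, blue is control and orange conditioned. The band holds a peak in all 8 libraries, from 8.68 to 88.1, and the right side holds few peaks, none above 29.9.

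Peaks of z at least 30, merged over the libraries within 200 bp, formed 5 sites in the Arc window, and each of the other 4 was strong in few libraries. Next to the region, the site at 74500003 to 74501053 had a z of 10.7, 27.0, 7.60 and 14.2 in control and 50.5, 12.4, 29.1 and 19.9 in conditioned replicates 1 to 4. Only conditioned replicate 1 passed 30 there, and in that library this site was higher than the Arc region itself. The site at 74498301 to 74498601 had 21.7, 14.4, 7.69 and 16.2 in controls and 16.6, 13.1, 21.3 and 37.8 in conditioned libraries. A peak was listed there in all 8 libraries, and conditioned replicate 4 alone passed 30.
The site near the low end of the window, at 74481246 to 74481337, was a single position in every library. Its z was 6.88, 6.05, 37.2 and 6.42 in controls and 12.2, 5.0, 49.5 and 21.5 in conditioned libraries, so replicate 3 of each group was high. The last site, at 74501355 to 74501405, passed 30 in control replicate 2 alone (33.0) and had no listed peak in 4 libraries.
Toward higher coordinates, the bin most often occupied was 74510501 to 74511000, with a weak peak in 6 of 8 libraries. Its z was 5.86, 5.24 and 13.5 in control replicates 1, 2 and 4 and 5.1, 9.51 and 10.6 in conditioned replicates 1, 3 and 4. Where the upstream activity-response element of Arc lies on mm9 is not given in the sources used here, so no peak is assigned to it.

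The Npas4 locus had another profile, with peaks over much of its length and no site that was strong in several libraries. Its highest z was 25.1, 61.9, 17.4 and 52.5 in control replicates 1 to 4. In conditioned replicates 1 to 4 it was 25.7, 17.4, 27.9 and 39.4. The highest control values exceeded every conditioned one, the lowest of each group was 17.4, and the groups overlapped. The means were 27.6 ± 9.11 in conditioned and 39.2 ± 21.3 in control mice (SD, n = 4 each), and conditioned minus control was -11.6 (SE 11.6; exact permutation p = 0.371, Benjamini-Hochberg value 0.495 over 4 window measures). Against controls 2 and 4 alone the difference was -29.6 (exact permutation p = 0.0667, the smallest that 4 against 2 libraries can give).

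Of 68379 autosomal 35 kb windows with a peak in any library, the groups did not overlap in highest z in 2308 (3.38%). Npas4 was not one of them. Among these windows of the same library, that of Npas4 ranked at percentiles 69.1, 85.7, 44.2 and 85.5 in control and 46.6, 43.8, 34.8 and 73.0 in conditioned replicates 1 to 4. The highest peak of the Npas4 window was thus close to that of an ordinary window in several libraries.
Its covered share was high for a window of its size. Peaks covered 37.1%, 29.0%, 11.1% and 17.6% of the window in controls 1 to 4 and 18.9%, 7.86%, 22.6% and 26.6% in conditioned mice 1 to 4. These shares ranked at percentiles from 93.0 to 99.9 (median 99.3 over the 8 libraries) among windows of that size. The means were 19.0% ± 8.05 in conditioned and 23.7% ± 11.6 in control mice (SD, n = 4 each), and conditioned minus control was -4.75 points (SE 7.06; exact permutation p = 0.543, Benjamini-Hochberg value 0.543). Windows without overlap in covered share made up 0.67% of the same set, and Npas4 was not among them.
Divided by the share of the autosomes covered in the same library, coverage of the Npas4 window was 4.07 ± 0.801 times in conditioned and 5.91 ± 1.22 times in control mice (SD, n = 4 each; exact permutation p = 0.0857). With peaks of z at least 10 the difference in covered share turned to 0.107 points, and with z at least 30 to 1.68 points.

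**Figure D3:**
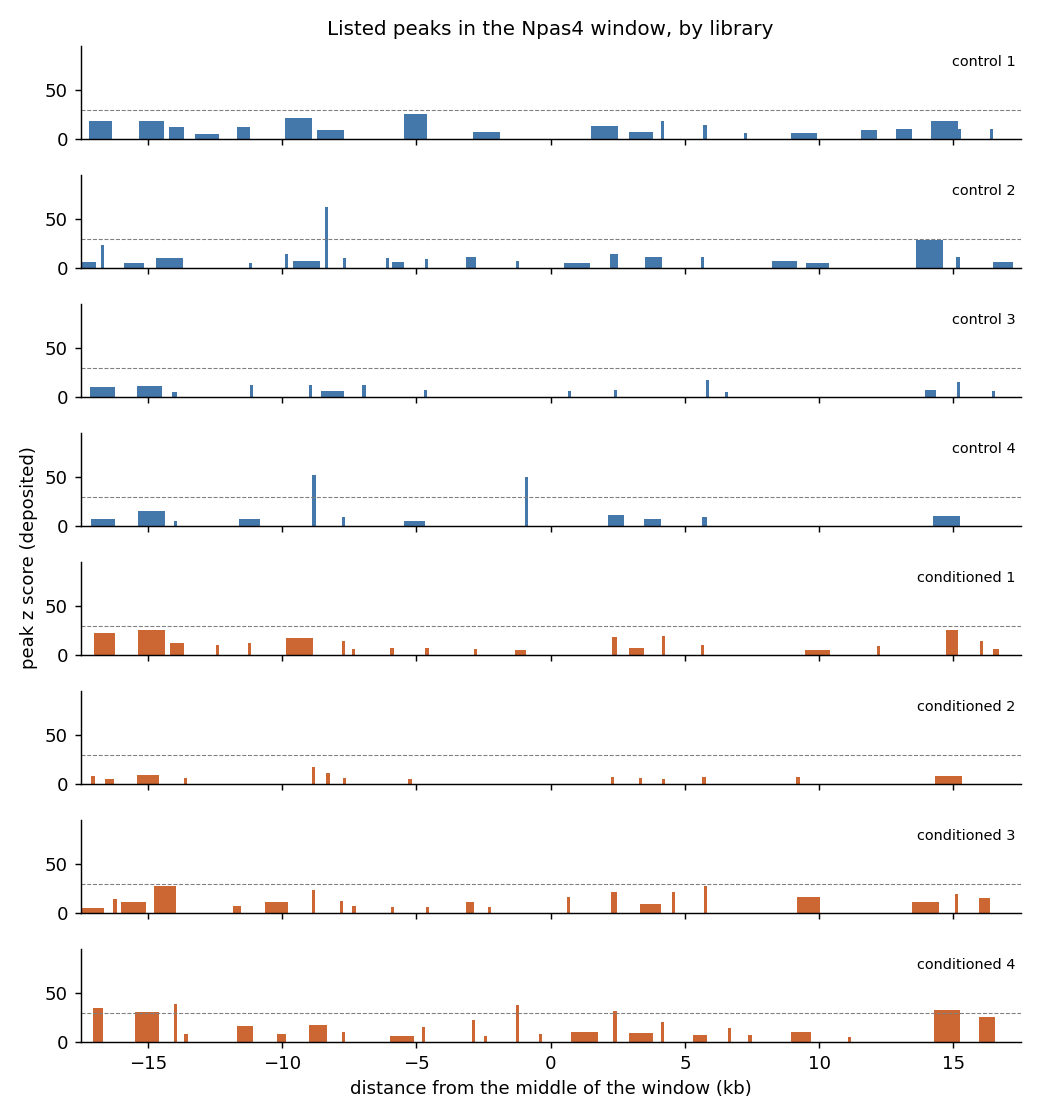
Listed peaks of each library across the Npas4 window, as z score against distance from the middle of the window; a bar spans the peak (at least 0.12 kb wide as drawn), the dashed line is z of 30, blue is control and orange conditioned. Peaks are spread over the window, and no merged site passes 30 in more than 1 library.

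In the Npas4 window 9 merged sites reached z of 30, each in 1 library. Conditioned replicate 4 gave 6 of them, control replicate 4 gave 2 and control replicate 2 gave 1. Since a region of the deposited list had at least 4 carriers, none of these sites could be in it. The nearest listed regions lay 26.8 kb below and 33.5 kb above the window, with log2 fold changes of 0.09 (SE 0.57) and 0.07 (SE 0.67) and adjusted p of 0.987 and 0.992 by edgeR.

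A peak lay within 200 bp in all 8 libraries at 5 of the 9 sites. The site at 4989815 to 4989965 had a z of 13.7, 14.01, 6.96 and 10.95 in control and 19.1, 7.09, 21.3 and 32.0 in conditioned replicates 1 to 4. Conditioned replicate 4 was the highest and control replicate 3 the lowest, and the groups overlapped. The site at 5001765 to 5002765 had 18.8, 29.2, 16.0 and 10.5 in controls and 25.4, 8.54, 19.5 and 33.1 in conditioned libraries. Here the lowest value belonged to conditioned replicate 2, the library with the second lowest total count.
At 4972015 to 4972915 the z was 18.6, 10.4, 11.4 and 15.5 in controls and 25.7, 9.60, 27.9 and 30.7 in conditioned libraries. Apart from conditioned replicate 2, every conditioned library was above every control there. Conditioned replicates 1, 3 and 4 also had the highest median z over all their listed peaks, at 9.99, 9.84 and 10.6. The other libraries had 7.87 to 9.26. The share of sites with such a pattern was not counted, and a part of library level in it was not tested. The site at 4970465 to 4970815 had its highest z, 34.9, in conditioned replicate 4, and that at 4978630 to 4978680 its highest, 52.5, in control replicate 4; the other 7 libraries had 5.79 to 23.8 at the former and 7.33 to 23.4 at the latter. The site at 4973465 to 4973515 reached 39.4 in conditioned replicate 4 and was listed in 7 libraries.
The remaining sites were isolated. That at 4979110 to 4979160 reached 61.9 in control replicate 2 and had a peak in 5 libraries, that at 4986215 to 4986265 reached 37.8 in conditioned replicate 4 and had one in 3, and that at 4986530 to 4986580 reached 50.0 in control replicate 4 and had one in 2.

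In the Arc window the highest z was 21.7, 69.1, 37.2 and 35.7 in control replicates 1 to 4. It was 50.5, 51.3, 49.5 and 88.1 in conditioned replicates 1 to 4. The 4 conditioned values exceeded 3 of the 4 controls, and control replicate 2 was second of all. The means were 59.9 ± 18.9 in conditioned and 40.9 ± 20.01 in control mice (SD, n = 4 each), and the gap was 18.9 (SE 13.8; exact permutation p = 0.286, Benjamini-Hochberg value 0.495). Without control replicate 2 the difference was 28.3 (exact permutation p = 0.0286, not adjusted, the smallest that 4 against 3 libraries can give). Against control replicates 2 and 4 alone it was 7.44 (exact permutation p = 0.733). The share of all windows whose groups separate once 1 library is left out was not counted. The percentile among 40 kb windows of the same library averaged 84.4 ± 9.15 in conditioned and 71.8 ± 16.7 in control mice. These means (SD, n = 4 each) differed by 12.6 (exact permutation p = 0.2).
Over 40 kb windows the groups did not overlap in 2058 of 59853 (3.44%), and Arc was not among them. Peaks covered 9.84% ± 2.01 of the Arc window in conditioned and 8.56% ± 1.75 in control mice (SD, n = 4 each), and conditioned minus control was 1.29 points (SE 1.33; exact permutation p = 0.343, Benjamini-Hochberg value 0.495), where 0.551% of windows had groups without overlap. The highest peak came from 4 different places in the 8 libraries, with the Arc region first in control replicates 2 and 4 and conditioned replicates 2 and 4.

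Set side by side in the same libraries, the Npas4 window was more covered than the Arc window in 7 of 8, by 12.2 percentage points on average (21.4% ± 9.59 against 9.20% ± 1.88, SD, n = 8; SE 3.24; exact sign-flip permutation p = 0.0156, Benjamini-Hochberg value 0.0468 over 4 measures). The exception was conditioned replicate 2. As ranks among windows of their own size, the covered shares stood at percentiles 98.2 ± 2.40 for Npas4 and 87.6 ± 7.65 for Arc (SD, n = 8; exact sign-flip permutation p = 0.0234, Benjamini-Hochberg value 0.0468). The rank of the highest peak went the other way, with 60.3 ± 20.3 for Npas4 and 78.1 ± 14.2 for Arc (SD, n = 8), but this did not pass the test (exact sign-flip permutation p = 0.0781, Benjamini-Hochberg value 0.0781). Peaks listed as single positions made up 44.0% ± 16.5 of peaks at Npas4 and 61.4% ± 10.3 at Arc (SD, n = 8; exact sign-flip permutation p = 0.0703, Benjamini-Hochberg value 0.0781). Without 1 library the gap in coverage ran from 10.1 to 14.2 points, with an unadjusted exact permutation p of 0.0156 to 0.0312. These 4 comparisons were added after the values were seen, and how often other pairs of windows differ as much was not counted. The windows differ in sequence as well, and a part of sequence content or mapping in the gaps was not tested.
The rank of the Arc window's highest peak exceeded that of the Npas4 window by 42.4, 42.0, 36.3 and 18.7 percentiles in conditioned mice 1 to 4. In controls 1 to 4 the same gap was -18.5, 2.7, 37.1 and -18.4. Arc thus ranked above Npas4 in 4 of 4 conditioned and in 2 of 4 control libraries. The gap averaged 34.9 ± 11.2 in conditioned and 0.715 ± 26.2 in control mice (SD, n = 4 each), and these means were 34.1 apart (SE 14.2; exact permutation p = 0.0857, Benjamini-Hochberg value 0.171 over 2 measures), which did not pass the test. Without control replicate 3 they were 46.3 apart (exact permutation p = 0.0286, not adjusted, the smallest that 4 against 3 libraries can give). Leaving out any other single library gave 27.7 to 39.6 (exact permutation p from 0.0857 to 0.143, not adjusted). The same gap in covered share was -10.2 ± 11.5 percentiles in conditioned and -10.9 ± 6.85 in control mice (SD, n = 4 each; exact permutation p = 0.943). Both were also added after the values were seen.
How often peaks recurred is given as a description. Of the Npas4 window's 70 bins of 500 bp, 10 (14.3%) had a peak in all 8 libraries, against 3 of 80 bins (3.75%) at Arc and 1.83% of bins over the autosomes. Bins without a peak in any library made up 7.14% at Npas4, 36.2% at Arc and 49.7% over the autosomes. Autosomal bins were counted from position 3000000 of each chromosome, and stretches beyond it where reads cannot be placed were not left out.

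**Figure D4:**
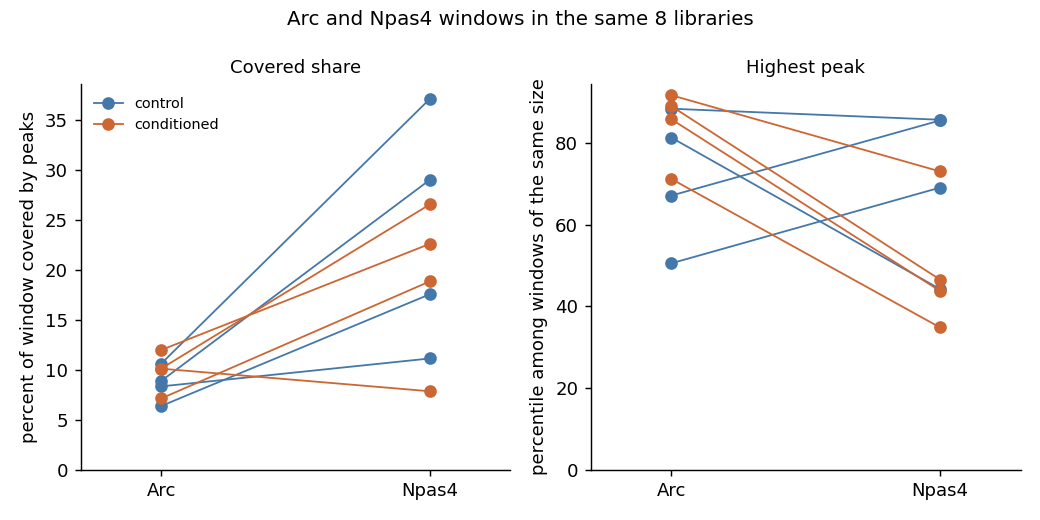
Covered share of the Arc and Npas4 windows (left) and rank of their highest peak among windows of the same size in the same library (right); each line joins the 2 windows of 1 library, blue for control and orange for conditioned. Coverage is higher at Npas4 in 7 of 8 libraries, and the rank of the highest peak averages 60.3 at Npas4 and 78.1 at Arc.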

How the data were processed

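Sono-seq libraries of 8 mice (4 control, 4 conditioned) were compared. Reads were aligned with Bowtie2 to mm9, per the submitters' processing notes; the sources used here name no peak caller or counting tool. Counts are raw reads per region as deposited by the authors. The z score of each peak, and the mean z score and number of carriers of each region, are the authors' deposited values, with peaks listed per sample. Columns left unused numbered 0.

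All 11304 regions were fitted with edgeR 4.0.16 under R 4.3.3 (quasi-likelihood, group only, TMM; filterByExpr removed 0 regions); DESeq2 1.42.0 and limma 3.58.1 were alternatives. The test was tested on simulated data. The SE is the fold change over the square root of F. Window measures used Python 3.11.15, numpy 2.4.6 and pandas 2.3.3, with 50 bp added to each peak and exact permutation over 70 arrangements (smallest two-sided p 0.0286). Percentiles, and shares of windows without group overlap, use the adjoining autosomal windows of the same size that held a peak in any library. Intervals assume separate animals as replicates, and without molecular identifiers, reads may repeat a molecule. The sites named are all peaks of z at least 30, merged within 200 bp, and the highest peaks; the members, lists and measures were chosen with earlier results of these data known. Deposited coordinates are printed as given.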

Additional observations from a re-analysis of the deposited data

Results flagged for a closer look

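The highest z in the Arc window was 88.1 in conditioned replicate 4, far from the other 3 conditioned libraries, which lay between 49.5 and 51.3. Its gap to the nearest of them was 0.954 of the group's range, above Dixon's 5% level for 4 values. Of 16 groups of 4 values examined at the 2 loci, 1 passed that level, and chance gives about 1 in 20. That library also had the highest median count per region, 1069, and the most listed peaks, 983420; a part of depth in the value was not tested. Without it the difference between the groups in highest z at Arc was 9.49.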

How the results depend on the processing

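No alternative called the Arc region: 0 of 1 passed in each of 20 settings, DESeq2's Wald test included, which called 40 regions elsewhere. Its log2 fold change turned from -0.20 to 0.57 with region totals alone, and ran from -0.47 to 0.024 without 1 library, turning positive without control replicate 3 (0.024) and without conditioned replicate 1 (0.019); the cause was not tested. The difference in highest z kept its direction at both loci, with 9.49 to 28.3 at Arc without 1 library (28.3 without control replicate 2, exact permutation p = 0.0286) and -18.9 to -4.10 at Npas4. The difference in covered share at Npas4 turned to 0.107 with z at least 10 and to 1.68 with z at least 30, and ran from -8.94 to -0.272 without 1 library. Coverage of Npas4 over Arc was 15.2 points in controls alone (exact permutation p = 0.125, the smallest that 4 libraries can give). In conditioned libraries alone it was 9.13 (exact permutation p = 0.25). Coverage of the lower over the higher side of the Arc region was 12.8 in controls alone and 13.3 in conditioned libraries alone. With z at least 10 it was 7.61 over all libraries, and the cause was not tested. Without 1 library the gap between loci ran from 10.1 to 14.2 and that between sides from 12.5 to 13.6. The gap in rank of the highest peak ran from 27.7 to 46.3. Sites at Arc went from 5 to 2 with z at least 50, and sites at Npas4 from 9 to 14 with z at least 20 and to 2 with z at least 50, by construction. The percentile of the count, the permutation of log2 CPM, the z at the Arc region itself, and all alternatives for coverage between loci or sides and for the gap in rank were added after seeing the data. The titles number the libraries of each group 1, 4, 6 and 9 (here 1 to 4), and the labels do not say that a number marks a pair. Same-numbered libraries did not deviate together in every pair (r of 0.161, 0.0482, -0.063 and 0.272), which does not settle whether they are pairs. The numbers were not taken as pairs. The replicate block gave a log2 fold change of -0.18 (adjusted p = 0.999 by edgeR) and changed no call. Taken as pairs, the exact sign-flip permutation p for highest z was 0.375 at Arc and 0.5 at Npas4. For covered share it was 0.375 at Arc and 0.625 at Npas4. The ratio of Arc to Npas4 counts was not run, since the Npas4 window has no region in the count table. Counts of 113 to 1234 in 1 region, and z scores of unstated scale, limit what could be seen.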

Other observations

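The nearest other regions of the count table lay 19.3 kb above and 60.3 kb below the ends of the Arc window. The one above (chromosome 15, 74539346 to 74540003) averaged 5.26 ± 3.01 CPM after conditioning and 6.65 ± 3.85 CPM in controls (SD, n = 4 each; log2 fold change -0.34, SE 0.59, adjusted p = 0.937 by edgeR). The one below (74419103 to 74419651) averaged 6.14 ± 3.80 CPM after conditioning and 4.16 ± 1.61 CPM in controls (log2 fold change 0.56, SE 0.54, adjusted p = 0.853 by edgeR). Neither neighbour passed the test.

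Over the 8 libraries, the regions whose log2 CPM went most closely with that of the Arc region were on chromosome 4 at 137149774 to 137150542 (Pearson's r 0.953), chromosome 13 at 49436666 to 49437316 (0.937) and chromosome 6 at 124719233 to 124719903 (0.934). They were followed by chromosome 14 at 63378212 to 63380527 (0.927) and chromosome 10 at 43260367 to 43260951 (0.916). Of 11303 regions compared, 7 had r above 0.9 and the median was 0.0158; these are the highest of many values over 8 libraries and are given as a description.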
